A study of Mus musculus with 5 samples.

Results

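The genes described here copy DNA in S phase or make the deoxynucleotides it is copied from. They comprise the origin recognition and licensing factors, the proteins that activate the replicative helicase, the polymerases and primase, the sliding clamp and its loader, the single-strand binding and Okazaki fragment enzymes, 5 enzymes of nucleotide supply and the E cyclins. The list was chosen by gene name and role, with earlier results of these data known. It holds 43 genes, of 16593 genes with a probe on the array or 8927 above background. Of the 43, 40 had a probe and 37 were above background; Gins1, Gins2 and Rfc3 had no probe here, and the single probes of Orc1, Pola1 and Pole2 lay at normalized log2 signals of 4.31 to 4.70 and above background on 0 of 5 arrays. The 37 members measured are those that passed a filter on low signal, and the probe used for each gene was above background on all 5 arrays.

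The cells were mouse embryonic fibroblasts (MEFs) from the C57BL/6 strain, labelled as null for Dicer, the nuclease that makes microRNAs from their precursors, and this deletion was shared by all groups. They were transfected by Lipofectamine with siRNA, a short RNA duplex that lowers 1 target transcript, and total RNA was taken 48 hours later. The knockdown group had 2 arrays, siTARBP2-1 and siTARBP2-2, with an independent siRNA each against TARBP2, a partner of Dicer that binds RNA duplexes, and the control siRNA group had 3 arrays, siControl-1 to siControl-3. The design text speaks of metastatic cells and a mock transfection where the labels give MEFs and siControl; the group names here are those of the labels. Separate cultures are not stated for the arrays, so p-values measure only how these arrays vary, and that variation may be technical.

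In a cell that is about to divide, the origin recognition complex, Cdc6 and Cdt1 load the Mcm2 to Mcm7 ring onto DNA, and Cdc45, Mcm10 and the GINS complex turn that ring into the active helicase. DNA polymerase alpha with primase starts each strand, the clamp Pcna holds the processive polymerases on DNA, and Fen1 and Lig1 join the lagging-strand fragments. Ribonucleotide reductase, thymidylate synthase, thymidine kinase and dUTPase keep the deoxynucleotides in supply, and many genes of this set are known targets of E2F factors at the entry into S phase.

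Raw signals had array medians between 79.0 and 81.9 and 12445 to 13051 of 25697 probes were above background on each array. Between control arrays the log2 differences of probes had an SD between 0.173 and 0.212. The Tarbp2 probe had normalized log2 signals of 9.50, 9.55 and 9.36 in the controls, 7.67 under siTARBP2-1 and 7.18 under siTARBP2-2, so the target was at 28.7% and 20.4% of control (limma, adjusted p = 0.0012 and 0.00129). The Dicer1 probe was below the filter in all groups and checks nothing about the deletion. Of 12 fibroblast markers 8 were above background, while Thy1, Lum and Postn were not and 1 had no probe. Of 4 endothelial markers 0 were above background. Of 6 leukocyte markers 4 were below background and 2 had no probe. The 4 measured epithelial markers had summed linear signals of 306 to 359.

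With siTARBP2-1 most replication and nucleotide supply genes lay below the control arrays. With siTARBP2-2 they lay on both sides of them, and most nucleotide supply enzymes were below with either siRNA. On the siTARBP2-1 array 33 of the 37 members (89.2%) lay below all 3 control arrays, against 35.6% of all genes, and the other 4 (Gins3, Prim1, Prim2 and Rfc1) lay above all 3, against 32.9% of all genes. The median difference of the members from the control mean was -0.26 on the log2 scale with siTARBP2-1, where the median of all genes was -0.01. On the siTARBP2-2 array 14 members (37.8%) lay below all controls, against 32.1% of all genes, and 16 lay above all, against 36.9%. The members' median there was 0.03, and that of all genes was 0.02. Each control array set against the other controls gave member medians of 0.02 for siControl-1, -0.00364 for siControl-2 and -0.04 for siControl-3.

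**Figure D1:**
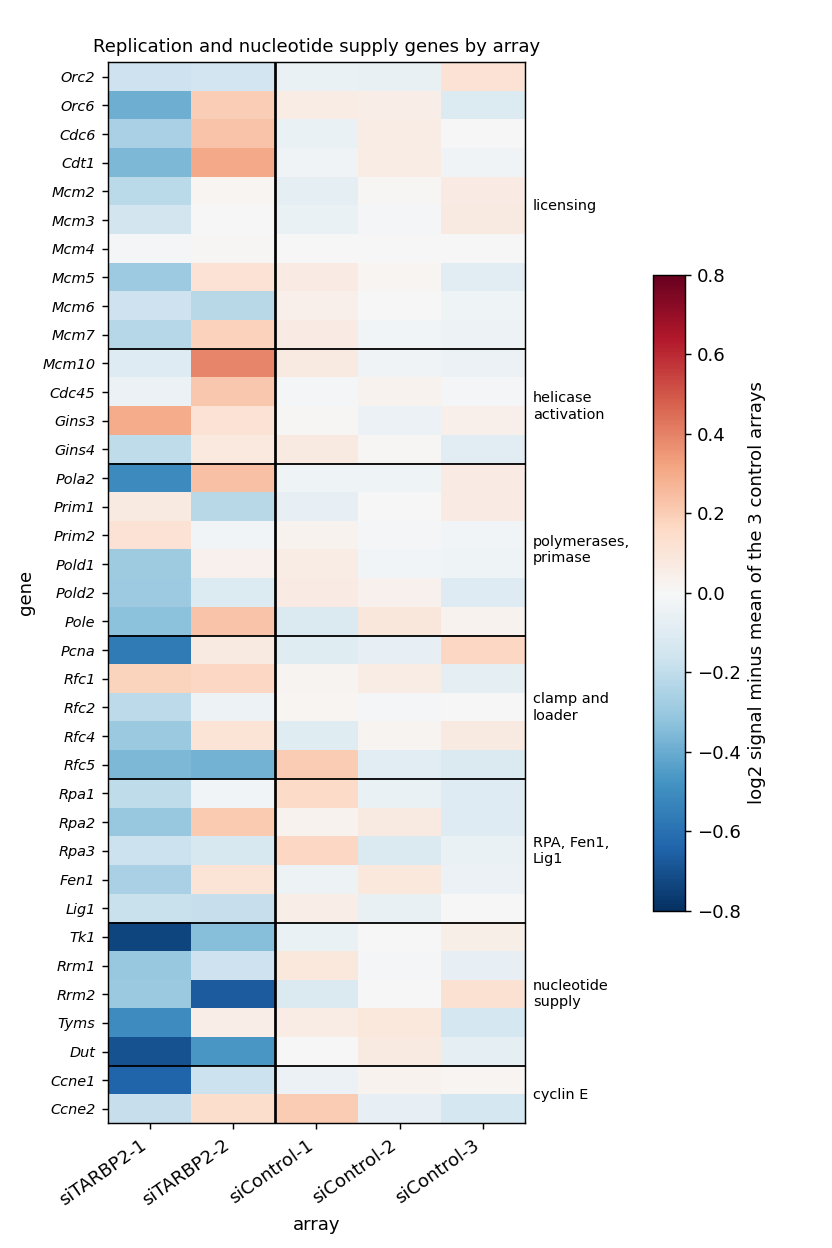
Difference of each of the 37 members from the mean of the 3 control arrays (colour, log2 units), with genes in rows by role and the 5 arrays in columns. The siTARBP2-1 column is below zero for 33 genes, while the siTARBP2-2 column is below zero for 16.

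With siTARBP2-1, 4 of the 37 members fell (10.8%) and 0 rose, at an adjusted p under 0.05 from a limma fit over all kept probes; of all 8927 genes 3.78% fell and 3.88% rose. They were Tk1, Dut, Ccne1 and Pola2. At an unadjusted p under 0.05, 16 members were lower (43.2%) and 1 was higher, against 12.3% and 12.4% of all genes. With siTARBP2-2, 1 member fell, Rrm2 (2.70%), and 0 rose, where 2.52% of all genes fell and 1.75% rose. At an unadjusted p under 0.05 4 members were lower with siTARBP2-2 and 2 were higher, against 11.4% and 11.5% of all genes. Each fit of a single siRNA takes its spread from the 3 control arrays and assumes that the lone siRNA array varies as they do. Without siControl-2, 0 members passed with either siRNA, and without siControl-3 Pola2 and Rrm2 did not. With no background correction, with normexp or with the series matrix, 8 members passed with siTARBP2-1, all lower, and 4 with siTARBP2-2 (Tk1, Dut and Rrm2 lower, Mcm10 higher), while the number of all genes passing grew as well, with no background correction from 683 to 1220 and from 381 to 954.

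**Figure D2:**
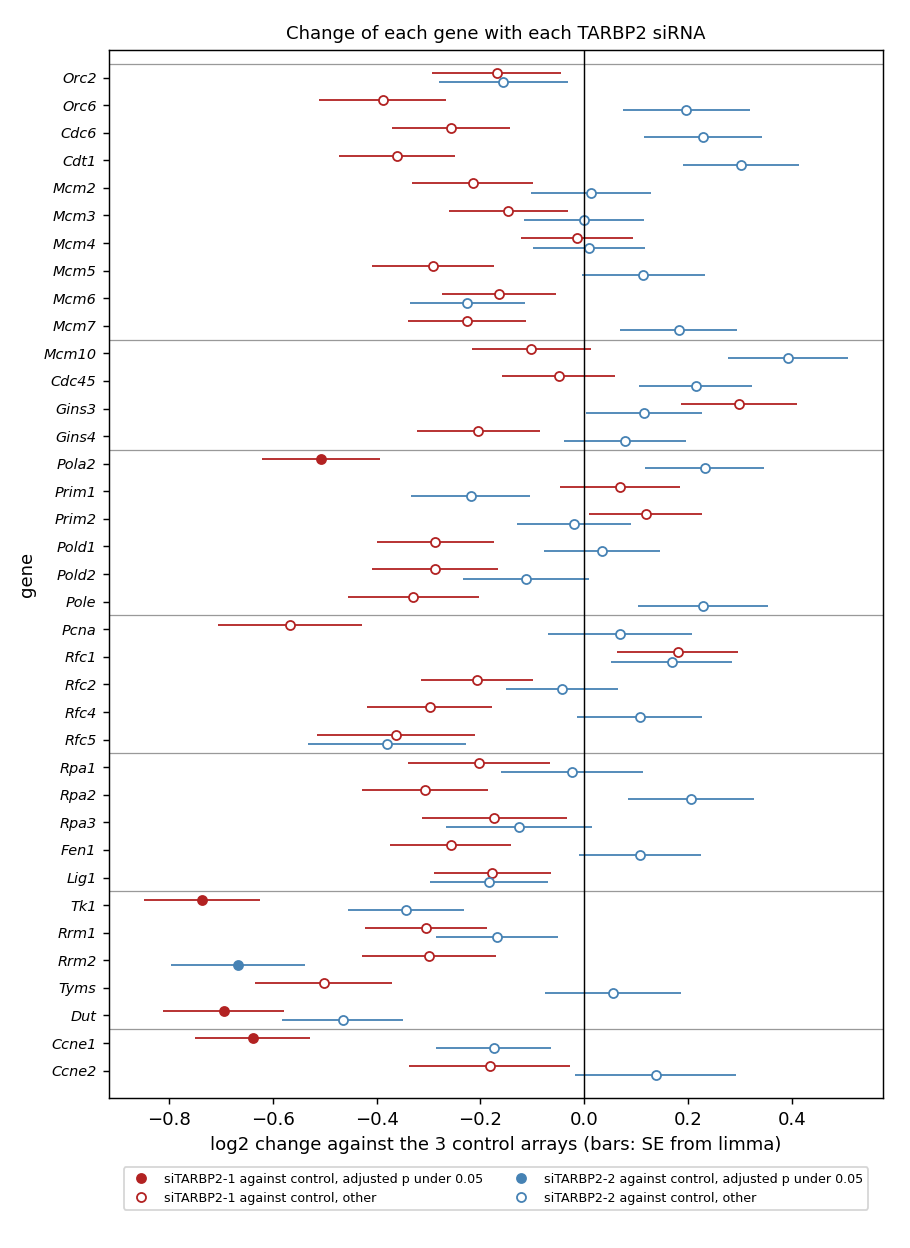
Log2 change of each member against the 3 control arrays with siTARBP2-1 (red) and siTARBP2-2 (blue); points are limma estimates, bars their SE, and filled points passed the adjusted threshold of 0.05. Filled points are Tk1, Dut, Ccne1 and Pola2 with siTARBP2-1 and Rrm2 with siTARBP2-2.

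Taken over both siRNAs, 0 of the 37 members passed the test, while 0.0112% of all genes fell (Tarbp2 alone) and 0% rose. At an unadjusted p under 0.05, 5 members were lower (Dut, Tk1, Rrm2, Rfc5 and Ccne1, 13.5%) and 0 were higher, against 6.03% and 6.88% of all genes. The lowest values were -0.58 for Dut (adjusted p = 0.166), -0.54 for Tk1 (adjusted p = 0.216) and -0.48 for Rrm2 (adjusted p = 0.265). The members' median was -0.10, and 32 of 37 had a negative value, against 49.9% of all genes. The median was -0.26 without the siTARBP2-2 array and 0.04 without the siTARBP2-1 array. Both siRNA arrays lay below all controls for 12 members (32.4%), against 15.1% of all genes. These were Orc2 and Mcm6, Pold2, Rfc2 and Rfc5, Rpa3 and Lig1, Tk1, Rrm1, Rrm2 and Dut, and Ccne1. Both lay above all controls for Gins3 and Rfc1 (5.41%), against 16.2% of all genes.

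The nucleotide supply enzymes had the lowest group median with either siRNA. It was -0.50 with siTARBP2-1 and -0.34 with siTARBP2-2, while the control arrays against each other had 0.00595, 0.00889 and -0.10. All 5 enzymes lay below all controls with siTARBP2-1, and 4 of 5 did so with siTARBP2-2, the exception being Tyms; of all genes 35.6% and 32.1% did so.

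Tk1 encodes thymidine kinase, which salvages thymidine for DNA synthesis. Its normalized log2 signal was 10.80, 10.86 and 10.89 in the controls, 10.12 under siTARBP2-1 and 10.51 under siTARBP2-2. Both siRNA arrays lay below every control, and siTARBP2-1 was the lower. The level with siTARBP2-1 was 60.1% of control (a log2 change of -0.74 with SE 0.11, n = 1 and 3; limma fit, adjusted p = 0.0134). With siTARBP2-2 the log2 difference was -0.34 (SE 0.11; limma, adjusted p = 0.135). A second Tk1 probe read -0.38 with siTARBP2-1 (adjusted p = 0.0925) and -0.26 with siTARBP2-2 (adjusted p = 0.229), so both probes were below control with both siRNAs and the brighter probe alone passed, with siTARBP2-1.

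Dut encodes dUTPase, which breaks down dUTP and so keeps uracil out of DNA and supplies the precursor of dTMP. Its log2 signal was 8.40, 8.47 and 8.32 in the controls, 7.70 under siTARBP2-1 and 7.93 under siTARBP2-2. The groups did not overlap. Against control Dut was at 61.8% with siTARBP2-1 (a log2 change of -0.69 with SE 0.12, n = 1 and 3; limma fit, adjusted p = 0.0187). It was at 72.4% with siTARBP2-2 (log2 difference -0.47, SE 0.12; limma, adjusted p = 0.0776), which missed the threshold.

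Ribonucleotide reductase, which reduces ribonucleotides to deoxyribonucleotides, has a large subunit from Rrm1 and a small S-phase subunit from Rrm2. The log2 signal of Rrm2 was 9.72, 9.83 and 9.95 in the controls, 9.53 under siTARBP2-1 and 9.16 under siTARBP2-2. Rrm2 was thus lowest with siTARBP2-2, the reverse of the order seen for Tk1 and Dut. Its level with siTARBP2-2 was 63.0% of control (a log2 change of -0.67 with SE 0.13, n = 1 and 3; limma fit, adjusted p = 0.0422), and a second probe gave -0.66 (adjusted p = 0.0483). With siTARBP2-1 the difference was -0.30 (adjusted p = 0.216), and the difference between the siRNAs, 0.37, did not pass (SE 0.16; adjusted p = 0.205). The second Rrm2 probe read only -0.13 with siTARBP2-1, at 9.49 against 9.50 on the lowest control array. Rrm1 had 11.15, 11.05 and 10.998 in the controls, 10.76 under siTARBP2-1 and 10.90 under siTARBP2-2, below all controls with each siRNA. Its differences of -0.30 and -0.17 did not pass (limma, adjusted p = 0.173 and 0.443).

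Tyms encodes thymidylate synthase, which makes dTMP from dUMP. Its log2 signal was 11.10, 11.13 and 10.91 in the controls, 10.54 under siTARBP2-1 and 11.10 under siTARBP2-2. Only the siTARBP2-1 array lay outside the control range. The difference with siTARBP2-1 was -0.50 (SE 0.13; limma, adjusted p = 0.0700). Tyms had 5 kept probes, and another of them passed with siTARBP2-1 (-0.73, SE 0.14, adjusted p = 0.0269). The remaining 3, with log2 signals near 5 or 6, read -0.18, -0.02 and 0.14, so the probes of Tyms differed in size and sign.

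**Figure D3:**
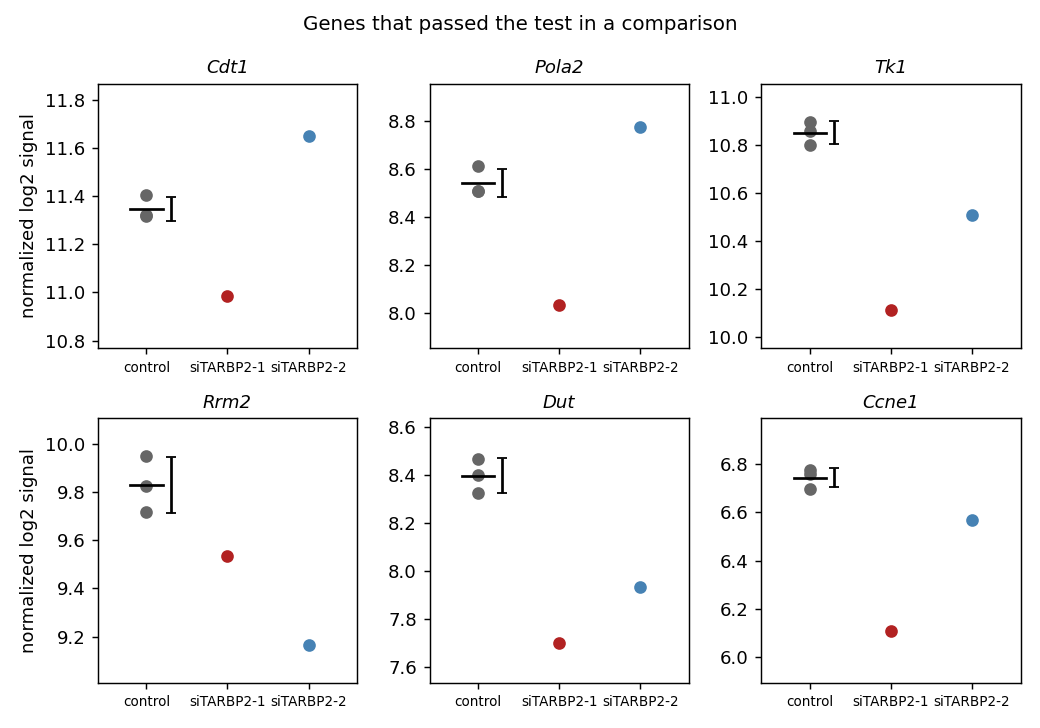
Normalized log2 signal of the 6 members that passed the test in a comparison: control arrays (grey points, with their mean as a line and 1 SD as a bar, n = 3) and 1 array for each TARBP2 siRNA. Each panel spans the same number of log2 units; Cdt1 and Pola2 lie on opposite sides of the controls with the 2 siRNAs.

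The E cyclins drive Cdk2 at the entry into S phase. Ccne1 had a log2 signal of 6.70, 6.78 and 6.76 in the controls, 6.11 under siTARBP2-1 and 6.57 under siTARBP2-2. Both siRNA arrays were below every control. Ccne1 fell to 64.2% of control with siTARBP2-1 (a log2 change of -0.64 with SE 0.11, n = 1 and 3; limma fit, adjusted p = 0.0208). With siTARBP2-2 its difference was -0.17 (adjusted p = 0.397). Across the settings tried, the log2 change of Ccne1 with siTARBP2-1 ran from -0.73 with median scaling to -0.39 with normexp. Ccne2, the second E cyclin, had 9.39, 9.12 and 9.05 in the controls, 9.004 under siTARBP2-1 and 9.32 under siTARBP2-2. The controls of Ccne2 were themselves spread by more than its difference of -0.18 (SE 0.15; adjusted p = 0.516).

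Among the polymerases and primase, 1 of 6 measured members fell with siTARBP2-1 and 0 with siTARBP2-2, against 3.78% and 2.52% of all genes, and the group medians were -0.29 and 0.01. Pola2, the second subunit of DNA polymerase alpha, had 8.51, 8.51 and 8.61 in the controls, 8.04 under siTARBP2-1 and 8.77 under siTARBP2-2. The siRNA arrays lay on opposite sides of the controls. Its level was 70.4% of control with siTARBP2-1 (a log2 change of -0.51 with SE 0.11, n = 1 and 3; limma fit, adjusted p = 0.0455) and 117% with siTARBP2-2 (log2 difference 0.23, adjusted p = 0.284). Pole, Pold1 and Pold2, of the leading and lagging-strand polymerases, had differences of -0.33, -0.29 and -0.29 with siTARBP2-1 (adjusted p = 0.171, 0.179 and 0.205). The primase subunits went the other way in sign: Prim2 had 8.53, 8.49 and 8.48 in the controls, 8.62 under siTARBP2-1 and 8.48 under siTARBP2-2. Its difference of 0.12 with siTARBP2-1 did not pass (adjusted p = 0.552) and became -0.01 when arrays were scaled to their medians instead of their quantiles. Prim1 differed by 0.07 (adjusted p = 0.758).

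The promoters of the 4 genes that fell with siTARBP2-1 are shown as the 250 bases before the annotated start, 5′ to 3′ on the gene's own strand, from RefSeq on assembly GRCm38.p6, because the set is known for E2F control. Capitals mark matches, on either strand, to the GC box GGGCGG; matches to the 7-letter E2F words (TTCCCGC as the first form, TTCGCGC as the second, TTGCCGC as the third and TTGGCGC as the fourth), to CCAAT and to the CHR word TTTGAA would be marked too.
Tk1 (chr11:117826015-117826264, minus strand): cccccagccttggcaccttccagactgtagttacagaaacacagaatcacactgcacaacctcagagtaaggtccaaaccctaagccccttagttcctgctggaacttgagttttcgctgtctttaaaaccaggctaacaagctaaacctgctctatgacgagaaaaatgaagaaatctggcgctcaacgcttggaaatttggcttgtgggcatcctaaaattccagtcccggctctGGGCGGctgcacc
Dut (chr2:125247265-125247514, plus strand): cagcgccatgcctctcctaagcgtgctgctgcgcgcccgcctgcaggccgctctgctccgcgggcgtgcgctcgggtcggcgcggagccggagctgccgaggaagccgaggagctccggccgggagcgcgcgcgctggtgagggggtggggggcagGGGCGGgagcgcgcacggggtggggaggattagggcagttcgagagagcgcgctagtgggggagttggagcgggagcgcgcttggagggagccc
Ccne1 (chr7:38107491-38107740, minus strand): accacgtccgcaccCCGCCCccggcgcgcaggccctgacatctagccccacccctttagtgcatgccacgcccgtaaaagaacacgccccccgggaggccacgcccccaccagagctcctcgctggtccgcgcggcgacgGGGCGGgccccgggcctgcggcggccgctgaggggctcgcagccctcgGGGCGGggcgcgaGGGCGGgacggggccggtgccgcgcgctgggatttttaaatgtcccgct
Pola2 (chr19:5964207-5964456, minus strand): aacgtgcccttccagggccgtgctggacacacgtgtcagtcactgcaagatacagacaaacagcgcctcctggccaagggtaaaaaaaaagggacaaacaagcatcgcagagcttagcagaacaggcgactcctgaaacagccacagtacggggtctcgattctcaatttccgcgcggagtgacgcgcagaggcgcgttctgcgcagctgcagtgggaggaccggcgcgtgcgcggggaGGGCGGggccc

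These stretches held the GC box and none of the other words. Promoter windows of 250 bases before and 50 after the start were on hand for 35 of the 43 members, in 41 windows. The 7-letter E2F words were in 23 of the 41 windows (56.1%), against 9.6% of 32851 windows of the same length. The 8-letter words with a further T in front, each of which contains a 7-letter word, were in 13 (31.7%), against 2.3%. CCAAT was in 24 (58.5%, against 37.4%), the GC box in 28 (68.3%, against 35.7%) and the CHR word in 5 (12.2%, against 17.9%). The median GC content before the start was 58.0% for members and 52.4% for all windows. The genes with the 8-letter word were Orc1, Cdc6, Cdt1, Mcm3, Mcm5, Mcm6, Mcm7, Gins3, Pola1, Pold1, Pole2, Rfc3 and Lig1, of which Orc1, Pola1, Pole2 and Rfc3 were not measured. A match is only a description of the letters, and their absence from a window says nothing of the factor.

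The licensing factors passed in 0 of 10 measured members with either siRNA against control. So few of all genes passed that a count of 0, here and in the groups that follow, does not set a group apart. On the probes used, all 10 lay below all controls with siTARBP2-1, against 35.6% of all genes. A dimmer probe of Orc2 and a dimmer probe of Mcm4 lay within the control range with siTARBP2-1. Their median was -0.22 with siTARBP2-1 and 0.06 with siTARBP2-2. Cdt1, the loading factor whose activity is restricted to the time before S phase, had 11.32, 11.40 and 11.32 in the controls, 10.99 under siTARBP2-1 and 11.65 under siTARBP2-2. Like Pola2 it was below every control with one siRNA and above every control with the other. Its differences from control were -0.36 (SE 0.11; limma, adjusted p = 0.108) and 0.30 (SE 0.11; adjusted p = 0.178). Orc6, a small subunit of the origin recognition complex, had 11.49, 11.49 and 11.33 in the controls, 11.05 under siTARBP2-1 and 11.63 under siTARBP2-2. It showed the same order as Cdt1, with a difference of -0.39 with siTARBP2-1 (SE 0.12; adjusted p = 0.111).

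Cdc6, which works beside Cdt1, differed by -0.26 with siTARBP2-1 (adjusted p = 0.225) and by 0.23 with siTARBP2-2 (adjusted p = 0.290). The Mcm ring subunits with siTARBP2-1 ran from -0.29 for Mcm5 (adjusted p = 0.189) to -0.01 for Mcm4. Mcm4 read 13.16, 13.17 and 13.17 in the controls, 13.15 under siTARBP2-1 and 13.17 under siTARBP2-2, so its main probe was almost the same on all 5 arrays. On the probe used, Mcm6 was the ring subunit below all controls with both siRNAs: it had 11.44, 11.40 and 11.37 in the controls, 11.24 under siTARBP2-1 and 11.18 under siTARBP2-2. Its differences of -0.16 and -0.23 did not pass (adjusted p = 0.408 and 0.284). That position held on 1 of the 4 kept Mcm6 probes: a nearly as bright probe read 0.14 with siTARBP2-1, above all controls, and the others lay within the control range. On the probe used, Orc2, at -0.17 and -0.16, also lay below all controls with both siRNAs. Neither difference passed, and the dimmer Orc2 probe lay within the control range with each siRNA.

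The 4 measured helicase activation genes had a median of -0.08 with siTARBP2-1 and 0.17 with siTARBP2-2, and 0 of 4 passed with either. Gins3, a GINS subunit, had 7.64, 7.58 and 7.67 in the controls, 7.93 under siTARBP2-1 and 7.74 under siTARBP2-2. It was above every control with both siRNAs, at 0.30 (SE 0.11; adjusted p = 0.161) and 0.12 (adjusted p = 0.582). Gins4, another GINS subunit, differed by -0.20 with siTARBP2-1 (adjusted p = 0.337) and by 0.08 with siTARBP2-2. Mcm10 had 10.56, 10.46 and 10.44 in the controls, 10.38 under siTARBP2-1 and 10.88 under siTARBP2-2. Its 0.39 with siTARBP2-2 was the highest with that siRNA among the probes used for the members (SE 0.11, limma, adjusted p = 0.108). All 4 genes of the group lay above all controls on the siTARBP2-2 array, against 36.9% of all genes.

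Of the clamp and clamp loader genes 0 of 5 passed with either siRNA, with medians of -0.30 and 0.07. Pcna, the sliding clamp, had 8.70, 8.74 and 8.97 in the controls, 8.24 under siTARBP2-1 and 8.87 under siTARBP2-2. Only siTARBP2-1 was outside the controls, at -0.57 (SE 0.14; limma, adjusted p = 0.0588), which missed the threshold narrowly. Rfc5, a clamp loader subunit, had 9.59, 9.29 and 9.27 on the control arrays and 9.02 and 9.003 with the siRNAs. It had nearly the same difference with both, -0.36 and -0.38 (SE 0.15 for each; adjusted p = 0.205 for each). Rfc1, the large loader subunit, had 10.27, 10.31 and 10.17 in the controls, 10.43 under siTARBP2-1 and 10.42 under siTARBP2-2. It lay above every control with both siRNAs, at 0.18 and 0.17 (adjusted p = 0.388 and 0.437).

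The single-strand binding protein RPA and the enzymes Fen1 and Lig1 passed in 0 of 5 members with either siRNA, with medians of -0.20 and -0.02. All 5 lay below all controls with siTARBP2-1, against 35.6% of all genes. Their differences ran from -0.31 for Rpa2 (adjusted p = 0.183) to -0.17 for Rpa3 (adjusted p = 0.495). Rpa2 had 8.20, 8.25 and 8.07 in the controls, 7.87 under siTARBP2-1 and 8.38 under siTARBP2-2, on opposite sides of the controls. A second Rpa2 probe of similar signal lay inside the controls with siTARBP2-1 (-0.01) and above them with siTARBP2-2 (0.49, adjusted p = 0.161). Fen1, which trims flaps between fragments, differed by -0.26 and 0.11 (adjusted p = 0.234 and 0.625). Lig1, the ligase that joins fragments, was below all controls with both siRNAs on its main probe, at -0.18 with each (adjusted p = 0.384 each way), but a dimmer Lig1 probe read 0.32 and 0.57 (adjusted p = 0.179 and 0.0563).

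**Figure D4:**
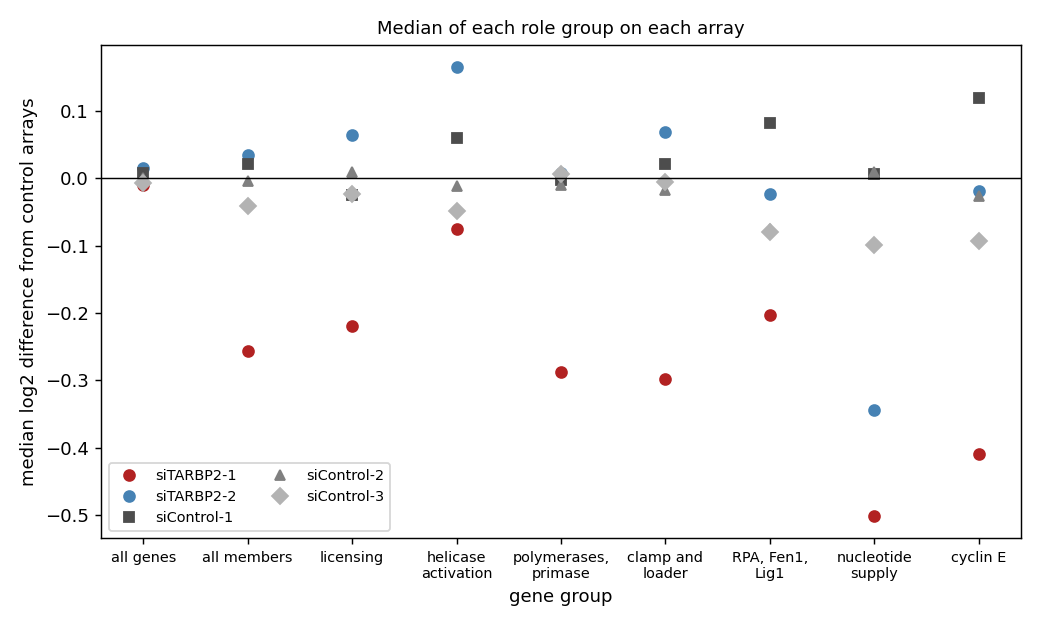
Median log2 difference from the control arrays for all genes, all members and each role group, on each of the 5 arrays; a control array is set against the other control arrays. With siTARBP2-1 (red circles) every role group is below zero, and with siTARBP2-2 (blue circles) the nucleotide supply median of -0.34 is the lowest.

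Probe choice mattered for some members. The 37 members had 58 kept probes, and 12 genes had more than 1. With siTARBP2-1 the kept probes of Orc2, Mcm4, Mcm6, Lig1 and Tyms did not share a sign. With siTARBP2-2 those of Cdc6, Mcm4, Lig1 and Tyms did not.

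**Figure D5:**
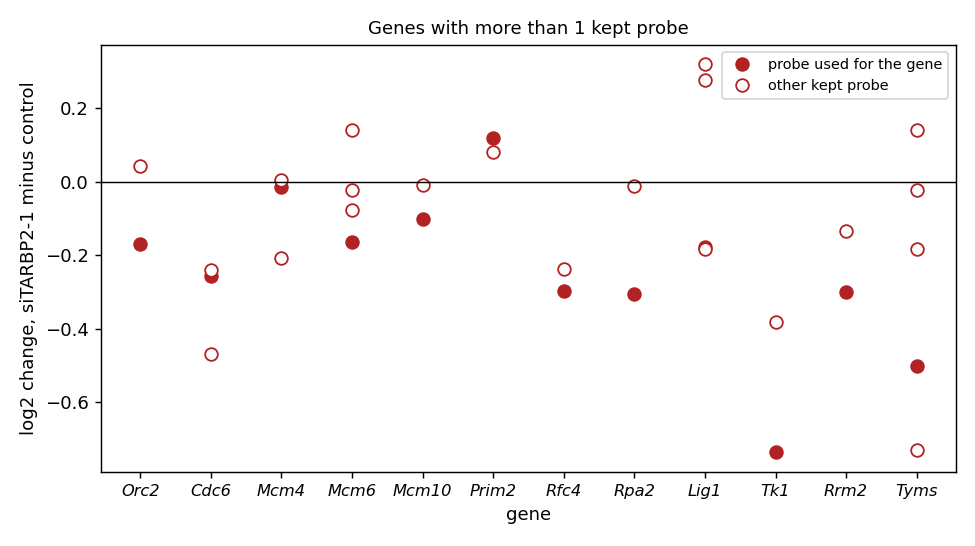
Log2 change with siTARBP2-1 against control for every kept probe of the 12 members with more than 1; filled circles mark the probe used for the gene, the one with the highest mean signal. Both Tk1 probes are below zero, while the 5 Tyms probes run from -0.73 to 0.14.

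Set directly against each other, siTARBP2-1 was below siTARBP2-2 for 29 of the 37 members (78.4%), against 52.7% of all genes. The members' median was -0.26, where the median of all genes was -0.02. Pola2 and Cdt1 passed as lower with siTARBP2-1 and 0 members passed as higher, where 3.34% of all genes were lower and 3.72% higher. Pola2 differed by -0.74 (SE 0.14, n = 1 and 1, spread from the controls; limma, adjusted p = 0.0275) and Cdt1 by -0.66 (SE 0.14; adjusted p = 0.0362). At an unadjusted p under 0.05, 15 members were lower (40.5%) and 0 higher, against 13.4% and 12.1% of all genes. The group medians ran from -0.39 for the E cyclins and -0.32 for licensing to -0.16 for the clamp and its loader. This comparison shares its siRNA arrays with those against control, so it is no separate evidence. Without siControl-2 neither call passed, and without siControl-3 the Cdt1 call did not. With no background correction, normexp or the series matrix 11 members passed, and with median scaling 9, all lower. The number of all genes passing in those settings is not given here, so these counts cannot be set against all genes.

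The lists of other replication factors, nucleotide enzymes, E2F and Rb family and G2/M genes had siTARBP2-1 medians smaller in size than the members' -0.26. Negative values made up 84.4% of other replication factors and 83.3% of G2/M genes, against 89.2% of members and 51.8% of all genes. The share was 66.7% for the E2F and Rb family, 62.5% for other nucleotide synthesis and 26.7% for salvage and breakdown. Between the siRNAs the E2F and Rb family median was -0.38, beyond the members' -0.26, and the others were smaller. Of all genes 3.78% fell and 3.88% rose with siTARBP2-1, and 2.52% fell with siTARBP2-2. The 1 of 32 lower and 1 of 24 higher given below are near these shares. The 15 salvage and breakdown enzymes had a median of 0.16 with siTARBP2-1, with 2 higher and 1 lower. Other replication factors had 1 lower of 32 measured (Chaf1b, a chromatin assembly subunit that follows the fork; -0.54, adjusted p = 0.0370), 0 higher and a median of -0.12. Chaf1b was at 0.22 with siTARBP2-2 (adjusted p = 0.309), and the siRNAs differed in it by -0.75 (adjusted p = 0.0254). Dtl, an adaptor for the degradation of Cdt1, differed between the siRNAs by -0.65 (adjusted p = 0.0486). Other nucleotide synthesis enzymes had 1 higher of 24 with siTARBP2-1 (Guk1, guanylate kinase; 0.67, adjusted p = 0.0271) and a median of -0.03. Among 15 salvage and breakdown enzymes Cmpk2, a nucleotide kinase of mitochondria also known as an interferon-induced gene, rose by 2.32 with siTARBP2-1 (adjusted p = 0.000966). Upp1, uridine phosphorylase, rose by 0.90 (adjusted p = 0.0126), and Ada, adenosine deaminase, fell by 0.75 with siTARBP2-1 (adjusted p = 0.0130) and by 0.69 with siTARBP2-2 (adjusted p = 0.0288).

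Of 12 E2F and Rb family genes 2 fell with siTARBP2-1, E2f5 (-0.60, adjusted p = 0.0238) and Tfdp1, a partner of E2F proteins (-0.56, adjusted p = 0.0327), and 0 passed with siTARBP2-2. Of all genes 3.78% fell with siTARBP2-1 and 2.52% with siTARBP2-2, which is also the background of the G2/M and fibroblast counts that follow. The E2F and Rb family medians were -0.18 and 0.11. Of 12 G2/M genes 2 fell with siTARBP2-1, Cenpa, the centromeric histone (-0.83, adjusted p = 0.0122), and Foxm1, a G2/M transcription factor (-0.63, adjusted p = 0.0216). The G2/M medians were -0.21 and -0.03. Their summed linear signal was 15640 with siTARBP2-1, 20990 with siTARBP2-2 and 19010 to 20480 on the control arrays. The same sum over the 37 replication and supply members was 55370, 65710 and 62660 to 66330, and in bulk RNA fewer cells in S phase and less RNA per cell cannot be told apart.

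The siTARBP2-1 array also stood apart in the interferon response list, where siTARBP2-2 departed in the other direction. Of 13 interferon response genes 12 rose with it (median 1.49), where 3.88% of all genes rose, and with siTARBP2-2 3 fell (median -0.47). Their summed linear signal was 60430 with siTARBP2-1, 14950 with siTARBP2-2 and 19240 to 21570 on the control arrays. Of 10 p53 target genes 1 rose with each siRNA, against 3.88% and 1.75% of all genes, with medians of 0.23 and 0.19. Fibroblast markers summed to 7493 and 7317 with the siRNAs and to 7951 to 8188 on the control arrays, and 3 of 8 fell with siTARBP2-1 and 1 with siTARBP2-2. Their median was -0.41 with siTARBP2-1, lower than the members' -0.26, and -0.02 with siTARBP2-2. The part of these differences in the levels of the replication genes was not tested.

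In the authors' deposited table, which gives 1 log2 value per accession for both siRNAs, 35 of the 37 members were matched and 29 had a negative value. The authors' deposited table gave -0.39 for Dut, -0.38 for Rrm2, -0.31 for Rfc5 and -0.23 for both Tk1 and Rrm1. It marked 3 members as higher, Mcm10, Gins3 and Rfc1. The mark is given for higher genes only, so a lower gene could not be marked. The share of all entries marked or negative was not counted, so these counts have no background.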

How the data were processed

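Total RNA of 5 samples was hybridised to 1-colour Illumina BeadChips. The authors deposited non-normalized probe intensity values and detection p-values, and the submitters' processing notes name lumi; how probe signals were summarised is not given in the sources used. The deposited detection p-values of siTARBP2-2 did not follow its signals (Spearman 0.000598 across probes). For each probe of that array the p-value used was instead averaged, at equal rank of signal, over the 4 remaining arrays, which was decided with the data in view. The authors' deposited series matrix (normalized intensity, an alternative here) and their table of log2 fold changes with a score of 1 for a higher gene were also read.

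Intensities were background corrected, quantile normalized and taken to log2 with the neqc function (R 4.3.3, limma 3.58.1, offset 16, negative controls inferred from the p-values). Of 25697 probes, 13123 had a detection p under 0.05 on 2 arrays or more and were kept, and the kept probe with the highest mean stood for each gene. The limma tests (lmFit, eBayes, two-sided) covered all kept probes, with Benjamini-Hochberg adjustment and a threshold of 0.05: both siRNAs against control, and a fit with a term per siRNA for each siRNA against control and against the other. Scripts were tested on simulated data. The number of arrays limits the precision.

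The members and all gene lists were chosen with earlier results of these data known. Genes named are members that passed in a comparison, the lowest and highest of each role group with siTARBP2-1, members outside the control range on the same side with both siRNAs, and up to 4 genes past the threshold from each other list; further members are given to show their group. Probe genes come from the platform annotation and promoters from RefSeq. Labels give both groups replicate numbers; deviations of same-numbered arrays correlated at -0.0485 and -0.0266, so the numbers were not taken to pair arrays.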

Additional observations from a re-analysis of the deposited data

Results flagged for a closer look

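Pola2 and Cdt1 differed between the TARBP2 siRNAs, by -0.74 and -0.66 on the log2 scale (siTARBP2-1 minus siTARBP2-2; limma, adjusted p = 0.0275 and 0.0362). Both genes lay below all 3 control arrays with siTARBP2-1 and above all 3 with siTARBP2-2, with 1 array per siRNA. The spread behind these p-values comes from the 3 control arrays alone, and without siControl-2 both calls ended (adjusted p = 0.0714 for Pola2 and 0.0843 for Cdt1).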

How the results depend on the processing

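Of 7 calls of single members, 7 passed without background correction, with normexp at an offset of 50, with median scaling, with the series matrix, with probes above background on all 5 arrays, with the mean of all kept probes, with a filter on the 4 arrays that have their own detection p-values (chosen after the data were seen) and without siControl-1. With no filter 2 ended (Pola2 with siTARBP2-1 and Rrm2 with siTARBP2-2), without siControl-2 7 ended and without siControl-3 3 ended; 0 reversed. Adjusted p ranged from 0.000452 to 0.0544 for Tk1, from 0.00204 to 0.0687 for Dut, from 0.00593 to 0.0801 for Ccne1, from 0.00956 to 0.121 for Pola2 with siTARBP2-1, from 0.00392 to 0.126 for Rrm2, from 0.00309 to 0.0843 for Cdt1 and from 0.00353 to 0.0714 for Pola2 between siRNAs. The causes were not tested. For the comparison between siRNAs, the counts of members that follow have no count of all genes beside them. With no background correction, normexp and the series matrix alike, members called were 8 with siTARBP2-1 (adding Orc6, Cdt1, Pcna and Tyms), 4 with siTARBP2-2 (Tk1, Dut, Rrm2 lower and Mcm10 higher) and 11 between siRNAs; median scaling gave 9 between siRNAs, and no filter 0 with siTARBP2-2. Leaving out single arrays changed the number of members passing in every comparison. How many of all genes passed in those fits is not given here.

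Member medians under median scaling were -0.15 over both siRNAs, -0.38 with siTARBP2-1 (all genes -0.12), 0.0784 with siTARBP2-2 and -0.43 between siRNAs (all genes -0.15), and Prim2 with siTARBP2-1 turned to -0.0112. The median with siTARBP2-1 was -0.23 with the series matrix and -0.22 with no filter and with the mean of probes; between siRNAs these were -0.24, -0.23 and -0.23. Leaving out arrays, medians ran from -0.26 to 0.0352 over both siRNAs, from -0.26 to -0.23 with siTARBP2-1, from 0.0209 to 0.0577 with siTARBP2-2 and from -0.27 to -0.26 between siRNAs. With the replicate number as a block, 0 members passed over both siRNAs and the median was -0.10; no paired analysis was possible for single siRNAs, which have 1 array each.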
